A study of Homo sapiens with 8 samples.

Results

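Messenger RNA levels of 9 genes of the death receptor and apoptosis pathways were compared after depletion of TET1, TET2 or TET3 in NCCIT, a cell line from a human embryonic carcinoma. The genes were chosen by name, with earlier results of these data known. From the array's annotation came the clusters that carry a single symbol of this list. They were 2 receptors (FAS and TNFRSF10B), the adaptor FADD, the initiator caspases CASP8 and CASP10, their regulator CFLAR, and 3 BCL2 family genes (BID, BAX and BCL2). All 9 were measured, of 18417 genes in all. Undifferentiated cells had been transfected on consecutive days with pooled small interfering RNAs against 1 TET gene (siTET1, siTET2, siTET3) or with a non-targeting pool (siNTC), so every group had received a transfection and the depletion was transient. Each of the 4 groups had 2 arrays, 8 in total, of an Affymetrix Human Gene 1.0 ST design hybridised with cDNA from 250 ng of RNA.

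Death receptors are membrane proteins of the tumour necrosis factor receptor family that, on binding a ligand, recruit FADD, which in turn recruits procaspase-8 and procaspase-10. The caspases cleave and activate one another on this platform, while the CFLAR protein (cFLIP) resembles caspase-8, lacks its protease activity and modulates the platform. Active caspase-8 cleaves effector caspases directly and cleaves BID, whose fragment moves to mitochondria and engages BAX, while BCL2 holds the mitochondrial outer membrane closed. CFLAR, CASP10 and CASP8 lie side by side in this order on the plus strand of chromosome 2. TET proteins oxidise 5-methylcytosine, the methylated base of CpG dinucleotides.

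The depletions themselves were visible on the arrays. TET1 was at 62.3% of its siNTC level in siTET1 cells, TET2 at 54.4% in siTET2 cells and TET3 at 47.4% in siTET3 cells, as geometric means of 2 arrays. Of 12 listed markers of pluripotent cells, POU5F1, NANOG and TDGF1 were not among the genes analysed. The other 9 (SOX2, LIN28A and GDF3 among them) were above background on all 8 arrays. Markers of other lineages were above it on all 8 arrays in part: 3 of 5 measured for trophectoderm, 2 of 5 for endoderm, 2 of 3 for mesoderm and 1 of 3 for neuroectoderm. All 3 measured markers of blood cells (PTPRC, CD3E, HBB) were below background on every array. Of 4 fibroblast markers, DCN and LUM were below background on every array, COL1A2 was above it on 2 arrays and COL1A1 on all 8. Background was taken as a log2 intensity of 5.21, the level under which 95% of 341 olfactory receptor genes lay, and 69.2% of genes were above it. Arrays of 1 group correlated at 0.998 to 0.999 across genes, siNTC arrays with depletion arrays at 0.989 to 0.991, and arrays of different depletions at 0.995 to 0.998. The largest gap on these arrays was therefore between siNTC and the depletions as a group, and the same pair of siNTC arrays served as the reference for siTET1, siTET2 and siTET3 cells alike.

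The promoters of CASP8, CFLAR and BID are printed first because CASP8 and BID had the largest changes of the 9 genes and CFLAR, the neighbour of CASP8, had none that passed the test. Each line gives the 250 bases before a transcription start in RefSeq (GRCh38.p14), read 5′ to 3′ along the gene's strand, with CpG dinucleotides in capitals. The CASP8 window is chr2:201233213-201233462 on the plus strand, the CFLAR window is chr2:201118466-201118715 on the plus strand, and the BID window is chr22:17774496-17774745 on the minus strand.
CASP8: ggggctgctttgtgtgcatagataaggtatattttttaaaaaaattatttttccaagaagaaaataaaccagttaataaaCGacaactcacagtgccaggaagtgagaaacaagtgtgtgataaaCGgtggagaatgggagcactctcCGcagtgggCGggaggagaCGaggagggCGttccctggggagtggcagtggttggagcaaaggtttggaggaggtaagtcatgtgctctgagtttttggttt
CFLAR: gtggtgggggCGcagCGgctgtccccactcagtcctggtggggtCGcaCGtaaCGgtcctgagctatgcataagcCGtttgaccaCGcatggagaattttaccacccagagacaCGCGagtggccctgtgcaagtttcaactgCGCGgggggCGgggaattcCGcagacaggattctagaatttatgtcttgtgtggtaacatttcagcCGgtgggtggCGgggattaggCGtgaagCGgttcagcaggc
BID: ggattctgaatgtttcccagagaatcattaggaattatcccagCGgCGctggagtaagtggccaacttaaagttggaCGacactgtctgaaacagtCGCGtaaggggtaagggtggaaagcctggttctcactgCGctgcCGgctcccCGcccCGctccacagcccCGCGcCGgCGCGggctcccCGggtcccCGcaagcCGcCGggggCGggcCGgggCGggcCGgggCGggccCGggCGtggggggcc
The CASP8 window held 6 CpG, the CFLAR window 17 and the BID window 25. These were the first of 3 CASP8 starts, the first of 4 CFLAR starts and the second of 5 BID starts. The first BID start held 4 CpG in its 250 bases, so the contrast depends on the start printed.

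Windows that also took in the first 50 bases of the transcript were available for 7 of the 9 genes, 18 starts in all. Over 35116 such 300-base windows of all genes, the median was 14 CpG, with quartiles of 4 and 28. The 3 CASP8 starts had 6, 5 and 6 CpG, all under the median. The 4 CFLAR starts had 21, 0, 1 and 22, of which the first and last lay between the median and the upper quartile and the others under the lower quartile. The 5 BID starts had 6, 33, 37, 31 and 29, of which all but the first exceeded the upper quartile. The single starts of FADD, BAX and BCL2 had 36, 38 and 31 and exceeded it too. The FAS starts had 18, 14 and 22. Genes that fell therefore had both starts between the lower quartile and the median (CASP8) and starts above the upper quartile (FADD and most of BID). The windows were searched for TATAAA, TTCNNNGAA and GGGCGG on both strands. Matches were counted at any position of a window. TATAAA, the sequence of a TATA box, was found in the window of the second CASP8 start and of no other start of these genes, against 11.5% of all windows. That match lay near the middle of the 250 bases before the start, not close to the start. TTCNNNGAA, the core bound by STAT proteins, was found at the first CASP8 start alone, against 7.66% of all windows. GGGCGG, the GC box, was found in 45.0% of all windows and in at least 1 start of each of the 7 genes except BCL2.

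Transcripts of CASP8, CASP10, BID and FADD fell in all 3 depletions, while TNFRSF10B and BAX rose in some of them and FAS, CFLAR and BCL2 did not pass the test in any. CASP8 had the largest change, to 45.0% of the siNTC level in the mean of the 3 depletions, followed by BID at 58.5%. Tests are those of limma across all genes with Benjamini-Hochberg adjustment, called at an adjusted p under 0.05, and an error is the standard error of the fit with n = 2 arrays per group. In siTET1 cells, 2 of the 9 genes were called higher and 4 lower, where 15.6% of all genes were called higher and 18.7% lower. In siTET2 cells the counts were 1 higher and 4 lower (14.4% and 21.8% of all genes), and in siTET3 cells 1 higher and 4 lower (13.8% and 22.3%). In the mean of the 3 depletions, 2 were called higher and 4 lower, where 16.5% and 24.2% of all genes were. Calls were thus common on these arrays, and the 9 genes were chosen with earlier results known. Their counts describe these genes and do not test the set against all genes. The median log2 difference of the 9 genes was −0.16 in siTET1, −0.06 in siTET2 and −0.18 in siTET3 cells, and that of all genes was −0.03, −0.04 and −0.02. The array measures RNA from a whole culture, in which fewer cells of a type and less RNA per cell cannot be told apart.

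**Figure D1:**
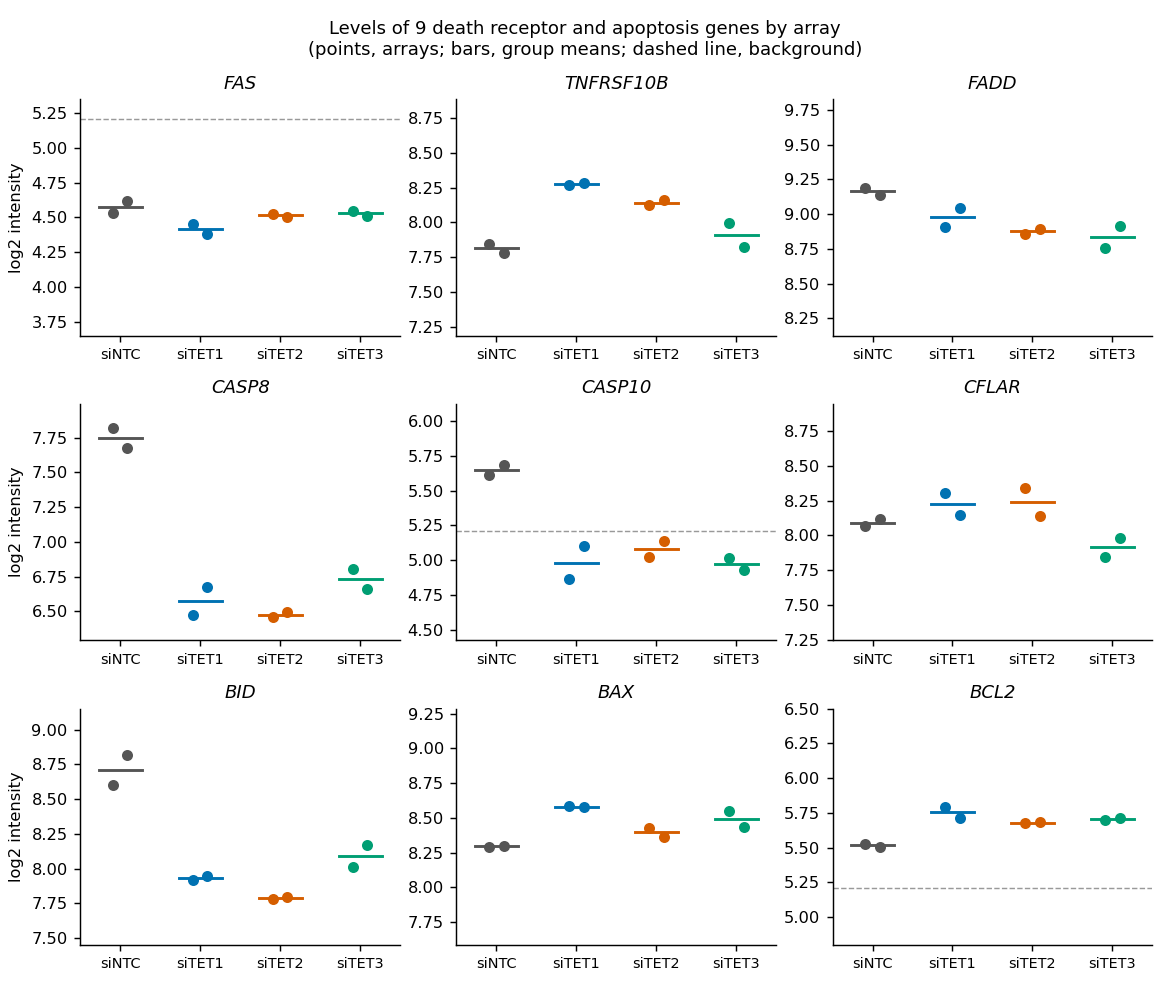
Log2 intensity (vertical axes, each spanning the same width) of the 9 genes on each of the 8 arrays, by group; points are arrays, short bars are group means of 2 arrays and the dashed line is background at 5.21. CASP8 and BID lay lower on all 6 depletion arrays than on either siNTC array, CASP10 crossed the background line, and FAS stayed under it on all 8 arrays.

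Among the receptors, FAS, which binds FAS ligand, was not detected above background. Its log2 intensities were 4.53 and 4.62 on the siNTC arrays and ran from 4.38 to 4.55 on the 6 depletion arrays, all 8 under 5.21. Differences between groups that are all at background have no order, so none is described for FAS.

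TNFRSF10B, the TRAIL receptor DR5, was expressed in every group and rose in 2 of the 3 depletions. Its log2 intensity was 7.84 and 7.78 on the siNTC arrays, 8.27 and 8.29 in siTET1, 8.12 and 8.16 in siTET2, and 7.998 and 7.82 in siTET3 cells. The siTET1 and siTET2 arrays lay above both siNTC arrays, whereas 1 of the siTET3 arrays lay between the siNTC arrays. The log2 difference from siNTC was 0.46 ± 0.07 in siTET1 cells (limma, adjusted p = 0.000188; 1.38-fold) and 0.33 ± 0.07 in siTET2 cells (adjusted p = 0.00242; 1.26-fold). In siTET3 cells it was 0.10 ± 0.07 (adjusted p = 0.311), with a 95% interval of −0.05 to 0.25. The depletions themselves differed for this gene: siTET3 cells were 0.37 ± 0.07 below siTET1 cells on the log2 scale (log2 difference −0.37, adjusted p = 0.00433). The difference between siTET3 and siTET2 cells, −0.23 ± 0.07, missed the threshold (adjusted p = 0.0527).

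TNFRSF10A, the other receptor for TRAIL that signals death, went the opposite way. It fell by 0.60 ± 0.09 on the log2 scale in the mean of the 3 depletions (limma, adjusted p = 0.000112), from 6.42 and 6.20 on the siNTC arrays to between 5.57 and 5.88 on the 6 depletion arrays, and it was called lower in each depletion.

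FADD, the adaptor that links these receptors to the caspases, fell slightly. On the log2 scale it was at 9.19 and 9.14 in siNTC, 8.91 and 9.04 in siTET1, 8.86 and 8.89 in siTET2, and 8.76 and 8.91 in siTET3 cells. All 6 depletion arrays lay below both siNTC arrays. The siTET3 arrays overlapped those of siTET1 and of siTET2, while both siTET1 arrays lay above both siTET2 arrays, without a call between those groups. The log2 difference was −0.29 ± 0.06 in siTET2 cells (limma, adjusted p = 0.00306) and −0.33 ± 0.06 in siTET3 cells (adjusted p = 0.00123). In siTET1 cells it was −0.19 ± 0.06 (adjusted p = 0.0362). That last call was lost without siTET1 replicate 1 (−0.12, adjusted p = 0.298), without either siTET2 array (adjusted p = 0.0582 and 0.0584) and without either siNTC array (adjusted p = 0.161 and 0.0659). In the mean of the 3 depletions FADD was at 82.9% of siNTC (95% interval 76.6% to 89.8%).

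CASP8, the initiator caspase of the death receptor platform, fell most. The arrays gave log2 intensities of 7.82 and 7.67 on the siNTC arrays, against 6.47 and 6.67 in siTET1, 6.46 and 6.49 in siTET2, and 6.81 and 6.66 in siTET3 cells. The highest depletion array was well below the lower siNTC array, and all 8 arrays were above background. Against siNTC, CASP8 differed by −1.17 ± 0.10 in siTET1 (limma, adjusted p = 1.14e-06), −1.27 ± 0.10 in siTET2 (adjusted p = 4.57e-07) and −1.01 ± 0.10 in siTET3 cells (adjusted p = 3.61e-06). These correspond to 44.3%, 41.5% and 49.6% of the siNTC level. The order of the levels was siNTC, siTET3, siTET1, siTET2, and only siNTC was separated from its neighbour in that order by the test. siTET3 cells lay 0.16 above siTET1 cells (95% interval −0.05 to 0.37, adjusted p = 0.317) and 0.26 above siTET2 cells (0.05 to 0.47, adjusted p = 0.114). The decrease was called under every alternative setting, with adjusted p from 6.55e-08 to 2.79e-05 for the mean of the 3 depletions. By log2 difference in that mean, CASP8 ranked 75 from the lowest of all 18417 genes.

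CASP10, a close relative of CASP8 and its neighbour on the chromosome, fell to background. Its log2 intensity was 5.61 and 5.68 on the siNTC arrays, just above the background of 5.21, and ran from 4.86 to 5.14 on the 6 depletion arrays, all under it. The 2 siNTC arrays were therefore the only ones on which CASP10 was detected. The log2 difference was −0.67 ± 0.11 in siTET1 (limma, adjusted p = 0.000261), −0.57 ± 0.11 in siTET2 (adjusted p = 0.00081) and −0.68 ± 0.11 in siTET3 cells (adjusted p = 0.000209). Because the depletion arrays give only a bound, the transcript was at least 1.36-fold lower in each depletion, with the dimmer arrays set at background. Differences between the depletions are not described for CASP10, since all of their arrays were under background.

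CFLAR, which lies next to CASP10 and encodes the regulator of the platform, was not called in any comparison with siNTC. Its log2 intensity was 8.06 and 8.12 in siNTC, 8.30 and 8.14 in siTET1, 8.34 and 8.14 in siTET2, and 7.85 and 7.98 in siTET3 cells. The siTET1 and siTET2 arrays lay above the siNTC arrays and the siTET3 arrays below them. The log2 difference was 0.13 ± 0.08 in siTET1 (limma, adjusted p = 0.25), 0.15 ± 0.08 in siTET2 (adjusted p = 0.185) and −0.18 ± 0.08 in siTET3 cells (adjusted p = 0.119). For the mean of siTET1, siTET2 and siTET3 cells the estimate was 0.04 ± 0.07, with a 95% interval of −0.11 to 0.18. Between depletions, siTET3 cells were lower than siTET1 cells (−0.31 ± 0.08, adjusted p = 0.0261) and than siTET2 cells (−0.33 ± 0.08, adjusted p = 0.0207). Neither call held throughout: without siTET3 replicate 1 they had adjusted p = 0.152 and 0.125, without siTET1 replicate 1 the first had 0.208, and without siTET2 replicate 1 the second had 0.241. CFLAR has a dimmer cluster on the array as well, which lay between 7.81 and 8.03 on all 8 arrays and did not separate the siTET3 arrays from the rest: they were at 7.95 and 7.81, against 7.86 and 7.89 in siNTC cells.

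BID, the BH3-only protein that caspase-8 cleaves, fell in all 3 depletions. Log2 intensities of BID were 8.60 and 8.82 in siNTC, 7.92 and 7.94 in siTET1, 7.78 and 7.79 in siTET2, and 8.01 and 8.17 in siTET3 cells. The siNTC arrays were the 2 brightest, and no depletion array came near them. Against siNTC, BID differed by −0.78 ± 0.08 in siTET1 (limma, adjusted p = 6.59e-06), −0.92 ± 0.08 in siTET2 (adjusted p = 1.33e-06) and −0.62 ± 0.08 in siTET3 cells (adjusted p = 4.3e-05), or 58.3%, 52.8% and 65.1% of siNTC. The level in siTET3 cells was higher than in siTET2 cells by 0.30 ± 0.08 (adjusted p = 0.0259), a call that was lost without siTET2 replicate 1 (adjusted p = 0.151), siTET2 replicate 2 (0.143) or siTET3 replicate 2 (0.113). The decreases against siNTC were called under every alternative setting. BID and CASP8 had the same order of groups, siNTC, siTET3, siTET1 and siTET2.

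BAX, which permeabilises the mitochondrial outer membrane, rose slightly in siTET1 and siTET3 cells. Its log2 intensity was 8.29 and 8.30 in siNTC, 8.58 and 8.58 in siTET1, 8.43 and 8.37 in siTET2, and 8.55 and 8.43 in siTET3 cells. All 6 depletion arrays were above both siNTC arrays. The log2 difference was 0.28 ± 0.06 in siTET1 (limma, adjusted p = 0.00232), 0.10 ± 0.06 in siTET2 (adjusted p = 0.22) and 0.19 ± 0.06 in siTET3 cells (adjusted p = 0.0232). The siTET3 call was lost without siTET3 replicate 1 (0.14, adjusted p = 0.15) and without siNTC replicate 1 or 2 (adjusted p = 0.0784 and 0.063). siTET2 and siTET1 cells differed by −0.18 ± 0.06 (adjusted p = 0.1).

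BCL2, which opposes BAX, was close to the threshold without passing it. On the log2 scale it was at 5.53 and 5.51 in siNTC and ran from 5.68 to 5.79 on the depletion arrays, all above both siNTC arrays and not far above background. Differences from siNTC were 0.24 ± 0.09 in siTET1 (limma, adjusted p = 0.0658), 0.16 ± 0.09 in siTET2 (adjusted p = 0.205) and 0.19 ± 0.09 in siTET3 cells (adjusted p = 0.132). The mean of the 3 depletions, 0.20 ± 0.08, had an adjusted p of 0.0543. It passed when genes below background were left out (0.0359), when the variance prior had no intensity trend (0.00946) and with the neighbours' shift subtracted (0.0283). In siTET1 cells it passed under these settings and after quantile normalization, with adjusted p from 0.013 to 0.0496, and in siTET3 cells it passed with no intensity trend (0.0301).

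**Figure D2:**
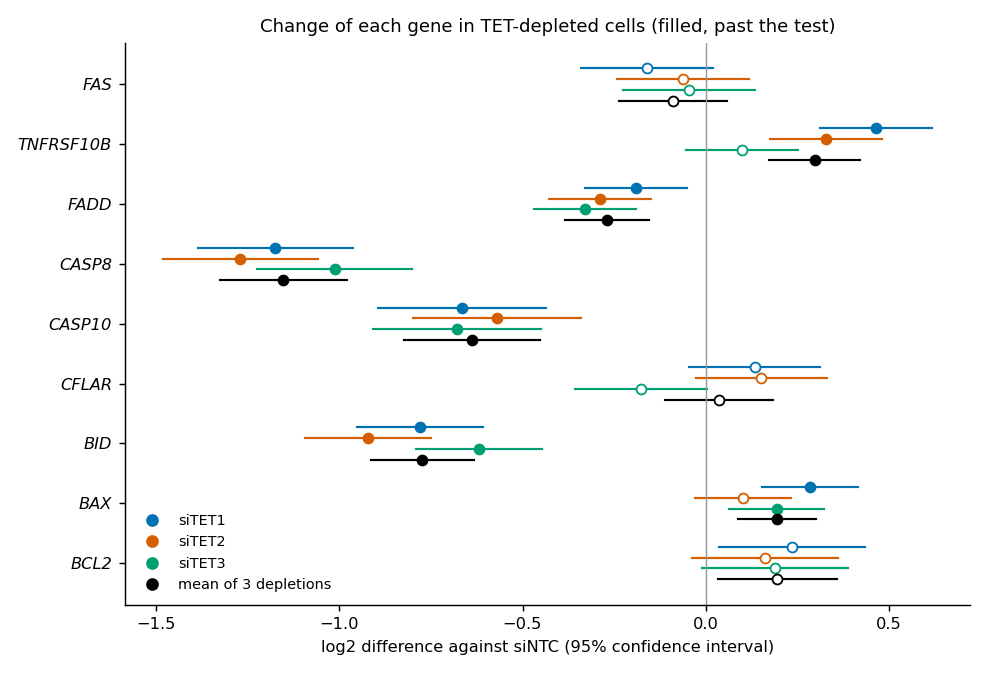
Log2 difference from siNTC (horizontal axis) of the 9 genes in siTET1, siTET2 and siTET3 cells and in the mean of the 3; horizontal bars are 95% confidence intervals of the limma fit and filled points passed the test. CASP8, CASP10, BID and FADD lie left of 0 in all 3 depletions, and CFLAR in siTET3 cells lies on the other side of 0 from siTET1 and siTET2 cells.

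Between depletions, few of the 9 genes differed. None was called between siTET2 and siTET1 cells by limma, where 6.46% of all genes were called. At an unadjusted p under 0.05 only BAX passed, and it was called when limma was fitted to the arrays of those groups alone (adjusted p = 0.033). Between siTET3 and siTET1 cells, 2 of the 9 were called (TNFRSF10B and CFLAR, both lower), where 13.8% of all genes were. Between siTET3 and siTET2 cells, 2 were called (BID higher, CFLAR lower), where 12.2% of all genes were. The largest of these called differences was that of TNFRSF10B, −0.37 on the log2 scale.

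The chromosome 2 neighbours were examined with the genes around them. CFLAR (chr2:201116164-201176687), CASP10 (chr2:201183141-201229406) and CASP8 (chr2:201233463-201287711) follow one another in GRCh38.p14, and the 10 nearest genes above background on each side were taken from the reference order. In the mean of the 3 depletions, 15 of these 20 genes were called lower and 1 higher (FZD7, 0.11), against 24.2% and 16.5% of all genes and 30.4% and 22.6% of the 12749 genes above background. Their median log2 difference was −0.40, where that of all genes was −0.03. In siTET1, siTET2 and siTET3 cells the medians were −0.42, −0.35 and −0.33, with 14, 15 and 15 of 20 called lower.

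The 4 nearest genes on each side differed in the size of their change. Immediately before CFLAR lies NDUFB3, a subunit of mitochondrial complex I, which fell by 1.27 ± 0.05 (limma, adjusted p = 5.24e-10). Beyond it, HYCC2 fell by 0.50 ± 0.04, ORC2, a subunit of the origin recognition complex, fell by 0.25 ± 0.04, and NIF3L1 fell by 0.73 ± 0.04. Immediately after CASP8, FLACC1 was at −0.09 ± 0.09 (adjusted p = 0.454), TRAK2, an adaptor of mitochondrial transport, fell by 0.18 ± 0.06, STRADB, a pseudokinase partner of the kinase LKB1, fell by 0.42 ± 0.03 and TMEM237, a ciliary protein, fell by 0.19 ± 0.04. Of the 20 genes, 2 had a lower value than CASP8 (SPATS2L, −1.42, and NDUFB3), while CFLAR lay between NDUFB3 and CASP10 with no call.

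**Figure D3:**
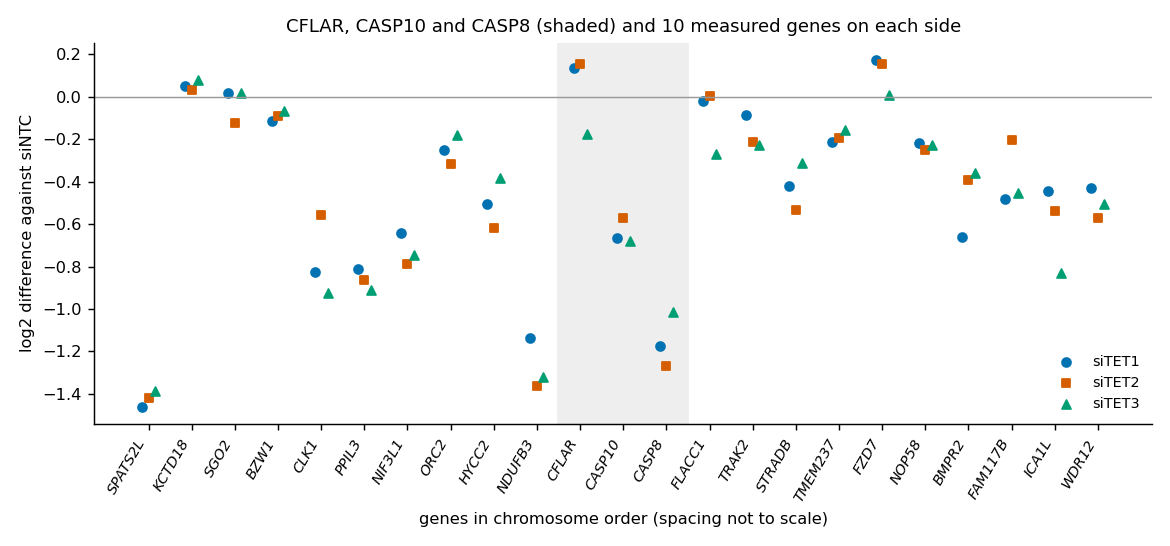
Log2 difference from siNTC (vertical axis) in siTET1 (circles), siTET2 (squares) and siTET3 cells (triangles) of CFLAR, CASP10 and CASP8 (shaded) and 10 genes above background on each side, in chromosome order and not spaced to scale. Most of the stretch lies under 0, with SPATS2L, NDUFB3 and CASP8 lowest and CFLAR near 0.

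The shift of the neighbourhood was present on each array. The median deviation of the 20 genes from their siNTC means was −0.44 and −0.40 on the siTET1 arrays, −0.34 and −0.37 on the siTET2 arrays, −0.38 and −0.30 on the siTET3 arrays and within 0.01 of 0 on the siNTC arrays. With every gene's values taken relative to the median of its own 20 neighbours, CASP8 still fell, by 0.82 in the mean of the 3 depletions (limma, adjusted p = 1.45e-06), and CASP10, with depletion arrays at background, by a fitted 0.30 (adjusted p = 0.0136), though in siTET2 cells its difference of −0.23 no longer passed (adjusted p = 0.117). On that scale CFLAR was higher, by 0.43 in the mean of the 3 depletions (adjusted p = 8.84e-05), and FADD in siTET1 cells was no longer called (adjusted p = 0.114). The part of the neighbourhood in the changes of the 3 genes was not tested beyond this subtraction.

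Other genes of the same pathways were described from lists arranged by role, which were also chosen with earlier results of these data known. Of 57 listed genes, 49 were analysed here, and in the mean of the 3 depletions 9 were called higher and 15 lower, against 16.5% and 24.2% of all genes. Their median log2 difference was 0.01, where that of all genes was −0.03. Values of these genes given without a group are for the mean of the 3 depletions. Among death ligands, FASLG, TNFSF10 (TRAIL), TNF, LTA and TNFSF15 were all below background on all 8 arrays.

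Receptors beside FAS and TNFRSF10B changed in part. In addition to TNFRSF10A, TNFRSF21 (DR6) fell by 0.49 ± 0.05 (limma, adjusted p = 2.19e-06), while TNFRSF1A, a receptor for TNF, was at 0.05 and TNFRSF25 at −0.07 without a call in that mean. TNFRSF1A was called higher in siTET3 cells alone (0.16, adjusted p = 0.0487). Of the decoy receptors, which bind ligand without signalling death, TNFRSF11B (osteoprotegerin) fell, from 5.81 and 5.91 in siNTC cells to a range that was above background on only 2 of 6 depletion arrays, and was at least 1.51-fold lower. TNFRSF10D was 0.24 higher (adjusted p = 0.00969), with calls in siTET2 (0.34) and siTET3 cells (0.36) and a value of 0.02 in siTET1 cells.

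Adaptors and caspases also moved in both directions. DAXX, which binds FAS and is a histone chaperone, fell by 0.37 ± 0.06 (limma, adjusted p = 0.000351). PEA15, a death effector domain protein, was called higher in siTET2 cells alone (0.28, against 0.06 in siTET1 and 0.09 in siTET3 cells), with a mean of 0.15 ± 0.03. CASP6, an effector caspase, fell by 0.65 ± 0.08 (adjusted p = 3.36e-05), from 7.44 and 7.18 on the siNTC arrays to between 6.55 and 6.82 on the depletion arrays. CASP9, the initiator caspase of the mitochondrial route, fell by 0.44 ± 0.05 (adjusted p = 1.27e-05), and both of these log2 differences were smaller than that of CASP8. CASP2 was 0.13 higher (adjusted p = 0.0434), with a call in siTET2 cells alone (0.17).

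On the mitochondrial side, genes of the list of mitochondrial factors and APAF1 rose where they were called. CYCS, cytochrome c, rose by 0.37 ± 0.05 and AIFM1 by 0.30 ± 0.04 (limma, adjusted p = 1.89e-05 and 1.27e-05), and the other 4 of that list of 6, APAF1, DIABLO, HTRA2 and ENDOG, were not called. Both other effectors of the BCL2 family fell while BAX rose: BOK by 0.92 ± 0.06 (adjusted p = 1.07e-07), from 8.01 and 8.13 to between 7.10 and 7.21, and BAK1 by 0.13 ± 0.04 (adjusted p = 0.021), the latter called in siTET3 cells alone (−0.16) among single depletions.

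Of the pro-survival relatives of BCL2, BCL2L1 (BCL-XL) fell by 0.47 ± 0.06 and MCL1 rose by 0.15 ± 0.03 (limma, adjusted p = 1.68e-05 and 0.000753), and BCL2A1 and BCL2L10 were below background. Among 7 BH3-only genes other than BID, HRK fell by 0.34 ± 0.05 and BAD fell by 0.30 ± 0.06, both less than BID. PMAIP1 (NOXA) was called higher in siTET2 cells alone (0.31, adjusted p = 0.000503, against 0.07 in siTET1 and −0.0043 in siTET3 cells), which gave a mean of 0.12 (adjusted p = 0.0356).

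Among the inhibitors of apoptosis, XIAP, which blocks caspases directly, rose by 0.39 ± 0.07 (limma, adjusted p = 0.00087), and NAIP rose by 0.51 ± 0.05, a value left uncertain because NAIP lies in a duplicated segment with near-identical copies. BIRC2 was lower by 0.33 and BIRC6 by 0.11 (log2 differences −0.33 and −0.11), and BIRC6 was called in siTET1 cells alone (−0.18). The list of caspase substrates held 5 genes, of which DFFB encodes the apoptotic nuclease itself and is not such a substrate. LMNA, encoding lamin A/C, fell by 0.69 ± 0.05 (limma, adjusted p = 2.28e-07). DFFA, the inhibitor of the apoptotic nuclease, was called lower in siTET2 cells alone (−0.32, against −0.06 in both other depletions), with a mean of −0.15 ± 0.04. DFFB was not called in any depletion, PARP1 was called higher in siTET1 cells alone (0.13, adjusted p = 0.0176) and ROCK1 in siTET3 cells alone (0.18, adjusted p = 0.0182).

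**Figure D4:**
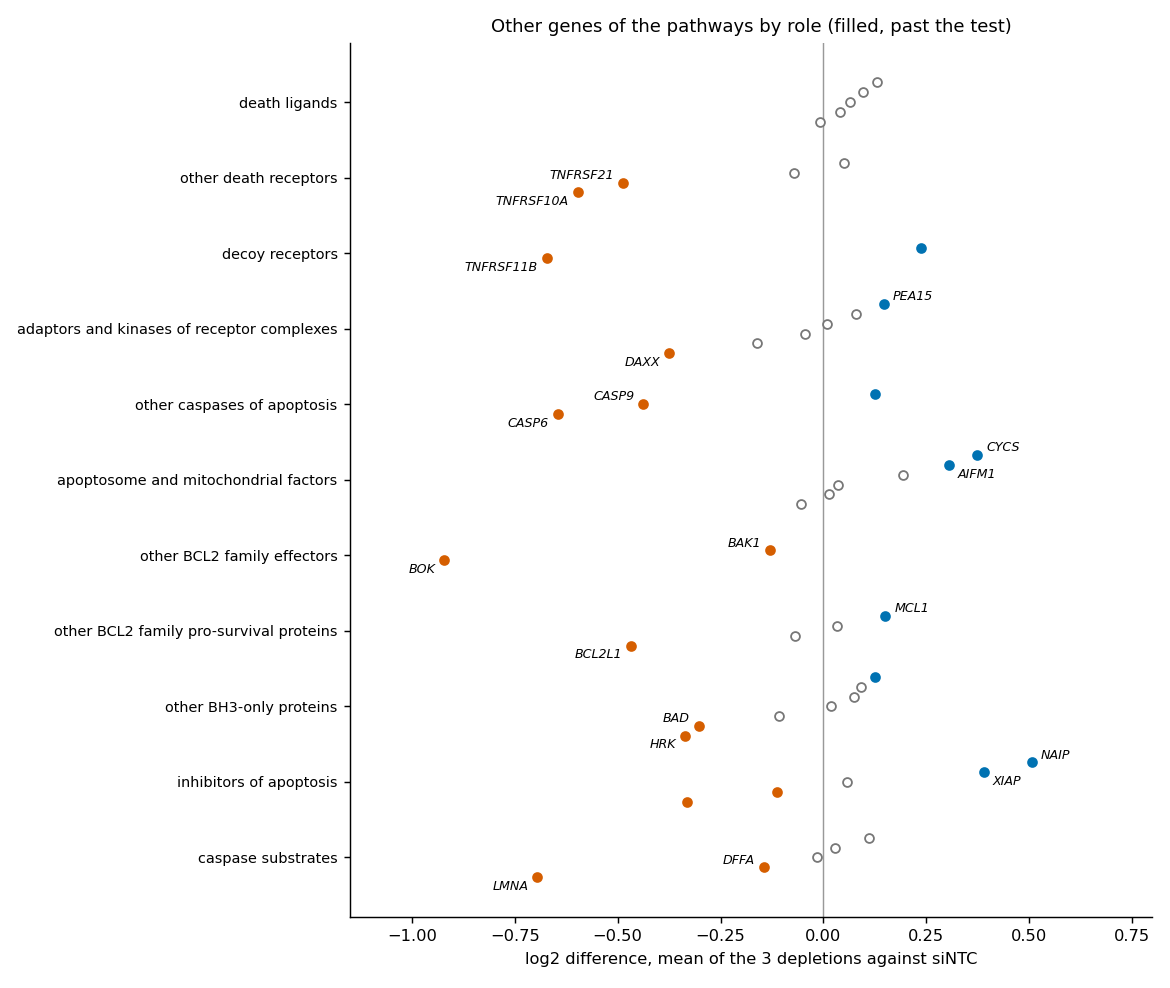
Log2 difference (horizontal axis, mean of the 3 depletions against siNTC) of 49 other genes of the pathways, 1 point per gene, by role; filled points passed the test, orange lower and blue higher, and named genes are those that met the naming rule. Decreases reach furthest for BOK, LMNA, TNFRSF11B and CASP6, and death ligands sit near 0 with no call.

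For each of the 9 genes above background, the genes whose log2 intensities followed it most closely over the 8 arrays were found by Pearson's r, as a description across 4 groups of 2 arrays that share the gap between siNTC and the depletions. CHP1 (r = 0.995) and ZNF737 (0.994) followed CASP8, and AP3M1 and DMAC2 (both 0.994) followed BID. TMEM14C (0.991) and MRPL19 (0.985) followed FADD. DCTN2 (0.988) and KCNH2 (0.984) followed BAX, CTNNB1 (0.988) and KIAA1143 (0.987) followed BCL2, and DDX17 (0.981) and KDM5B (0.977) followed TNFRSF10B. GAB1 (0.975) and CNPY3 (0.940) followed CFLAR. CASP10, whose mean over all arrays was below background, was left out. None of these genes belongs to the lists above.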

How the data were processed

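The deposited table holds log2 intensities of 33297 transcript clusters, which the authors normalized between arrays with Partek, named without a version in the submitters' processing notes. How background was corrected and probes were summarized is not given in the sources used here. Platform annotation gave 19460 clusters 1 symbol, 1754 several and 12083 none. Clusters with 1 symbol were used, and for 769 genes with several clusters the brightest, leaving 18417 genes. Groups came from the sample titles.

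All 8 arrays entered 1 linear model with a term for each of 4 groups, in limma 3.58.1 under R 4.3.3, using lmFit and then eBayes with its trend option, which gave 4 residual degrees of freedom and added 8.55 from the prior. Tests were two-sided, adjusted by the Benjamini-Hochberg method over all genes. The steps were tested on simulated data with independent normal noise, in which 200 of 18417 genes were changed in siTET1 against siNTC. There 1.5-fold changes were recovered at 100% and 1.25-fold changes at 42%, with 11 false calls. In the data 6320 genes were called in that comparison, which loosens the adjusted threshold. The simulated shares are therefore not the sensitivity of the tests above. Nothing in the labels says that replicates were separate cultures, so p-values measure the spread between these arrays, and the number of arrays limits the precision. For bounds, an array dimmer than background was set at background.

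The 9 genes and the lists were chosen with earlier results of these data known. Named beside them were the 2 genes per list with the largest called difference in the mean of the 3 depletions and all 6 depletion arrays on 1 side of siNTC, the 4 nearest neighbours on each side, the TET genes, and the 2 most similar genes per gene. Other genes of small lists were named after their values were seen. Symbols and coordinates were those of RefSeq (GRCh38.p14). Alternatives were quantile normalization, the compared groups alone, no intensity trend, genes above background, the mean of a gene's clusters, a replicate block, subtraction of the neighbours' shift, a 1.5-fold threshold and leaving out each array.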

Additional observations from a re-analysis of the deposited data

How the results depend on the processing

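Of 922 recomputed values of single genes, 871 kept their direction and side of the threshold, 24 lost a call, 16 gained one and 11 changed sign. CASP8 and BID kept their calls against siNTC under every alternative. With a 1.5-fold threshold added, 3 of the 9 genes were called in siTET1, 2 in siTET2, 3 in siTET3 cells and 3 in the mean. In siTET3 against siTET1 or siTET2, 0 were called. The share of all genes past both thresholds was not counted, so these counts describe the 9 genes alone. Where 3 were called, 1 was CASP10 by its fitted value, although its bound of 1.36-fold does not reach that threshold. Between siTET3 and siTET1 cells, 1 was called after quantile normalization or with no intensity trend, and 1 to 3 on leaving out each array. Between siTET3 and siTET2 cells, 0 were called with no intensity trend, 1 with the mean of a gene's clusters and 0 to 2 on leaving out each array. Between siTET2 and siTET1 cells, 1 was called with the compared groups alone. Of all genes, 2534 were called between siTET3 and siTET1 cells in the main fit, 2266 after quantile normalization and 1287 with no intensity trend. Between siTET3 and siTET2 cells, 2244 were called in the main fit, 1018 with no intensity trend and 2196 with the mean of a gene's clusters. Between siTET2 and siTET1 cells, 1189 were called in the main fit and 2370 with the compared groups alone. The cause of the lost calls was not tested. Signs turned for differences that were not called. These have no order for FAS and, between depletions, for CASP10, both at background. FAS in siTET3 against siTET2 turned to −0.027 after quantile normalization. CFLAR in siTET2 against siTET1 turned to −0.0035 with the mean of its clusters. CFLAR in siTET3 against siNTC went from −0.18 to 0.20 with the neighbours' shift subtracted. On leaving out each array, siTET2 against siTET1 ran from −0.023 to 0.21 for CASP10, −0.20 to 0.0059 for CASP8 and −0.083 to 0.12 for CFLAR; siTET3 against siTET1 from −0.13 to 0.11 for CASP10; and siTET3 against siTET2 from −0.0043 to 0.034 for FAS and −0.12 to 0.036 for FADD. The replicate numbers did not pair the arrays (same-numbered deviations correlated at −0.04 to 0.24), and a replicate block changed no call: 6, 5, 5 and 6 of the 9 genes were called in siTET1, siTET2, siTET3 and the mean. With 2 arrays per group, a group reduced to 1 array was assumed to vary like the others.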
